A study of Mus musculus with 2 samples.

Results

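The interferon-induced GTPases of this series were described through 10 genes, the guanylate-binding proteins (GBPs) Gbp2, Gbp3, Gbp4, Gbp5 and Gbp7 and the immunity-related GTPases (IRGs) Irgm1, Irgm2, Igtp, Iigp1 and Tgtp2. They were taken by symbol from the 14654 genes of the count table. They were followed across immune cell classes, macrophage states and CD45-negative cells of melanomas grown in wild type (WT) mice or in mice lacking Siah2, an E3 ubiquitin ligase.

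GBPs and IRGs are GTP-hydrolysing proteins made by most cell types after contact with interferon gamma, which acts through its receptor and the kinases Jak1 and Jak2, and to a lesser degree after type I interferon. They gather on the vacuoles of intracellular bacteria and parasites and on bacteria in the cytosol, break these membranes and feed products to inflammasomes. Their induction needs no pathogen, and in tumors the same genes are read as a sign that cells have met interferon.

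YUMMER1.7, a mouse melanoma line that draws many immune cells, was injected under the skin of male C57BL/6 mice aged 8 weeks, and tumors were taken after 11 days. The WT group had wild type hosts and the other group had Siah2-/- hosts, while the injected tumor cells were of the same line in both, so the deletion was carried by host cells and not by the tumor cells. Live CD45+ cells were sorted with some CD45- cells added back, and 1 droplet library of 3′ ends (10x Genomics, 1 molecular identifier, or UMI, per captured transcript) was made per genotype. How many tumors entered each library was not given in the sources used here, so genotype, tumor pool and library cannot be told apart, and there is no replicate check on any difference: no test was made, and every interval below covers counting error only. The label gives the cells as CD45+. The sorting protocol gives a mixture of 5 CD45+ cells to 1 CD45- cell, and the design text gives 1000 CD45- cells for every 20000 CD45+ cells.

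The WT library held 4512 cells and 64781513 UMIs (median of 11434.5 per cell), and the library labelled Siah2-/- held 5563 cells and 59080246 UMIs (median of 8699). The shallowest kept cell had 6670 UMIs in WT and 4896 in the other library, and 34 barcodes occurred in both. Siah2 itself was counted at 10.2 counts per 1e6 UMIs (CPM) in WT and 8.55 CPM in the library labelled Siah2-/-, a log2 ratio of -0.25 (95% interval -0.42 to -0.08). A 3′ tag can lie outside the deleted stretch of the gene, so this does not check the genotype label, and the library is named by its label throughout.

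Cells were sorted into classes by UMIs of marker genes, with none of the 10 members among them. Macrophages (1857 WT and 2005 labelled Siah2-/- cells) carried C1q genes at 16831 and 10882 CPM. CD8 T cells (428 and 780 cells) carried Cd3 genes at 3865 and 4174 CPM, and NK cells (379 and 605 cells) carried Ncr1 at 571 and 564 CPM. Dendritic cells (97 and 116), regulatory T cells or Tregs (59 and 68, all with a UMI of Foxp3) and CD4 T cells without Foxp3 (21 and 303) were small classes. CD45-negative cells, with no UMI of Ptprc and at least 10 UMIs of collagen and other fibroblast markers, made up 14.5% of the WT library and 1.64% of the other library (654 and 91 cells). They carried the tumor marker Hmga2 at 246 and 160 CPM. A further 2612 cells met no gate.

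Most of the members lie in clusters in the mouse genome (GRCm38). Gbp5, Gbp7, Gbp3 and Gbp2 follow each other on the plus strand of chromosome 3, from the start of Gbp5 at 142493978 to the end of Gbp2 at 142638008, and Gbp4 lies on the minus strand of chromosome 5 (105115767 to 105139586). Irgm1 (48861968 to 48871683) and Tgtp2 (49057194 to 49064206) lie on the minus strand of chromosome 11, Igtp (58199556 to 58207591) and Irgm2 (58199618 to 58222782) on its plus strand. Annotated exons of Igtp and Irgm2 share 162 bases, 8.01% of those of Igtp and 4.39% of those of Irgm2. Every one of 401 windows of 100 bases in the last 500 bases of the Tgtp2 transcript is also found in its neighbour Tgtp1, so reads of Tgtp2 and Tgtp1 can be split or lost in counting and Tgtp2 values are uncertain. None of the other 9 members had such a window.

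Promoters were searched in RefSeq sequence on GRCm38.p6, over the 250 bases upstream of each start, on both strands, for the gamma-activated sequence (GAS, TTCNNNGAA) and the interferon-stimulated response element (ISRE, GAAANNGAAA, or TTTCNNTTTC on the other strand). Among all 32851 promoters 7.02% held a GAS match, 2.98% an ISRE match and 0.332% both. Of the 8 members found in the promoter table (Gbp4 and Iigp1 were not), all 8 held an ISRE match in a promoter (the second of 2 Gbp3 promoters held neither motif) and 5 (Gbp5, Gbp7, Tgtp2, Igtp and Irgm2) also held a GAS match. The windows below, written from 5′ to 3′ on the strand of the gene with matches in capitals, are shown because they put both elements of 3 IRGs side by side and elements of 3 GBPs beside them. The starts used here are those of RefSeq, and those of Gbp5 and Irgm2, with their windows, lie inside the gene bounds given above. A match is a description of the letters, not of binding.
Igtp, plus strand, chr11:58199501-58199541: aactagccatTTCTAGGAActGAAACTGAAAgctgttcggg
Irgm2, plus strand, chr11:58214892-58214932: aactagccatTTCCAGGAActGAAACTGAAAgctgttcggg
Tgtp2, minus strand, chr11:49064263-49064303: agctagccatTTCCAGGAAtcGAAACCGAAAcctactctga
Gbp7, plus strand, GAS matches, chr3:142530220-142530267: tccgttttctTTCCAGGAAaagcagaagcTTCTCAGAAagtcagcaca
Gbp7, plus strand, ISRE match, chr3:142530273-142530302: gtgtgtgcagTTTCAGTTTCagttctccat
Gbp5, plus strand, ISRE match, chr3:142496759-142496788: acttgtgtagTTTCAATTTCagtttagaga
Gbp3, plus strand, overlapping ISRE matches, chr3:142559989-142560024: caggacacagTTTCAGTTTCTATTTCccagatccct

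In Igtp, Irgm2 and Tgtp2 the GAS and ISRE matches are 2 bases apart and in the same order. The Igtp and Irgm2 windows are identical at 40 of 41 bases, and the Tgtp2 window matches them at 31 and 32 bases. Igtp and Irgm2 thus share this element while their levels across cell classes differed, as given below.

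In macrophages the 10 members summed to 1204 CPM in WT and 1942 CPM in the library labelled Siah2-/-, a log2 ratio of 0.69 (0.67 to 0.71). The ratio was larger for the GBPs (737 and 1306 CPM, log2 ratio 0.82) than for the IRGs (467 and 637 CPM, log2 ratio 0.45), and their intervals (0.80 to 0.85 and 0.41 to 0.48) did not overlap. Most of this gap was Gbp2: the other 4 GBPs summed to 368 and 517 CPM, a log2 ratio of 0.49 (0.45 to 0.53), whose interval overlapped with that of the IRGs. All 10 members were higher in the library labelled Siah2-/-, and 4 of the 10 (Gbp2, Gbp4, Gbp5 and Tgtp2) were past 1.5-fold, the size used here to call a difference among genes with at least 50 UMIs in a class. None was past 1.5-fold lower. Of all 10577 such genes in macrophages 8.23% were past 1.5-fold higher and 7.78% lower. The median log2 ratio was 0.51 over the members and -0.05 over all genes. Without Gbp2 the summed ratio was 0.47.

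Gbp2, which coats vacuoles and bacteria and promotes inflammasome activation, was counted at 370 CPM in WT macrophages and 789 CPM in those of the library labelled Siah2-/-, a log2 ratio of 1.09 (1.05 to 1.13). After every cell was thinned to 4000 UMIs, so that cells of the libraries had the same depth, 52.2% of WT and 73.3% of the other macrophages had a Gbp2 UMI (74.3% and 88.4% without thinning). Both measures thus placed Gbp2 higher in the library labelled Siah2-/-. Gbp4 stood at 63.7 and 141 CPM, with a log2 ratio of 1.15 (1.05 to 1.24), and thinned cells with a UMI made up 20.9% and 39.1%. Gbp5, which takes part in assembly of the NLRP3 inflammasome, stood at 35.1 and 59.2 CPM, a log2 ratio of 0.75 (0.62 to 0.89). Gbp3 (138 and 168 CPM) and Gbp7 (131 and 149 CPM) had the smallest ratios of the GBPs, at 0.28 and 0.19.

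Among the IRGs, Irgm1, Irgm2 and Igtp (also known as Irgm3) are the regulators that sit on host membranes and hold the effectors in the inactive state, whereas Iigp1 (Irga6) and Tgtp2 (Irgb6) are effectors that load onto pathogen vacuoles. The regulators Irgm1 (149 and 181 CPM, log2 ratio 0.28) and Irgm2 (24.0 and 27.3 CPM, log2 ratio 0.19 with an interval of 0.01 to 0.36) differed little between the libraries. Igtp differed more, at 147 and 218 CPM, with a log2 ratio of 0.56 (0.50 to 0.63). Igtp and Irgm2, whose promoter windows differ at 1 base, thus differed in the size of their ratios. The effector Iigp1 stood at 139 and 192 CPM (log2 ratio 0.47), and Tgtp2 at 7.91 and 19.3 CPM (1.28, interval 1.02 to 1.55). Tgtp1, the near-identical neighbour of Tgtp2, was at 1.98 and 9.77 CPM.

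**Figure D1:**
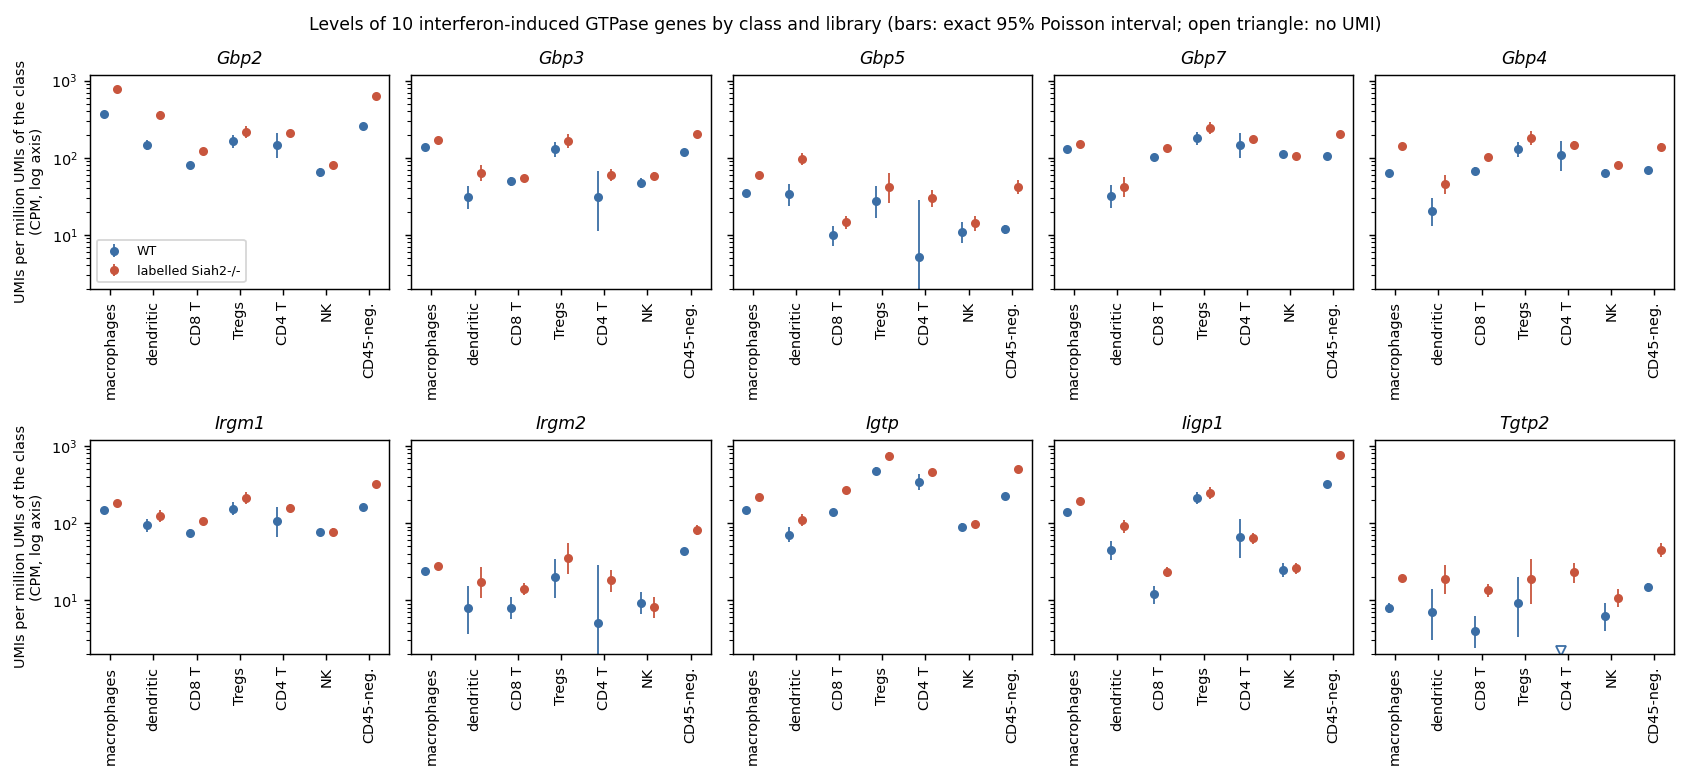
Level of each of the 10 genes (CPM, UMIs over all UMIs of the class, log axis) in 7 cell classes, WT in blue and the library labelled Siah2-/- in red, with exact 95% Poisson intervals for counting error. Bars that reach the lower edge go on below it, and the open triangle marks a class with no UMI. Gbp2 was highest in macrophages in both libraries (370 and 789 CPM) and Igtp in Tregs (479 and 747 CPM).

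The macrophage difference depended on which cells were counted. With the WT minimum of 6670 UMIs applied to both libraries the summed log2 ratio was 0.58, with all barcodes of at least 1000 UMIs that met the gate it was 0.52, and with each macrophage state given equal weight it was 0.51, all just under 1.5-fold. Gbp2, Gbp4 and Tgtp2 stayed past 1.5-fold in 10 of 10 alternatives and Gbp5 in 9 of 10. RNA from outside the cell, judged from NK genes in macrophages, came to an estimated 3.03% (WT) and 6.33% of UMIs, and the members stood at 996 and 1261 CPM in empty droplets. With that RNA subtracted the summed log2 ratio was 0.72.

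In dendritic cells the members summed to 487 CPM in WT and 971 CPM in the library labelled Siah2-/-, a log2 ratio of 1.00 (0.85 to 1.14). Of the 8 members with at least 50 UMIs there, 6 were past 1.5-fold higher and 0 lower, where 11.3% and 8.67% of all 4477 genes were, and the medians were 1.05 and -0.03. Gbp5 had the largest ratio of the 8, at 33.5 and 96.3 CPM (log2 ratio 1.53, interval 0.98 to 2.10), followed by Gbp2 at 148 and 363 CPM (1.29, interval 1.03 to 1.56). Dendritic cells of the library labelled Siah2-/- thus held the highest Gbp5 level of any class in that library, although Gbp7 (31.7 and 42.1 CPM) was lowest there in both libraries. RNA from outside the cell was estimated at 47.4% and 39.8% of the Gbp4 level in this class, so its ratio of 1.17 rests on few UMIs of the cells themselves (23 and 53 in all).

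The members of CD8 T cells summed to 545 CPM in WT and 847 CPM in the library labelled Siah2-/- (log2 ratio 0.64, interval 0.57 to 0.70), and here the IRGs (235 and 423 CPM, log2 ratio 0.85) differed more than the GBPs (310 and 424 CPM, log2 ratio 0.45). This order was the opposite of that in macrophages, and the intervals of the 2 families (0.75 to 0.95 and 0.37 to 0.54) did not overlap. Igtp made up most of the IRG difference and stood at 137 and 266 CPM, a log2 ratio of 0.96 (0.83 to 1.09), and 41.4% and 57.1% of thinned cells had an Igtp UMI. In all, 6 of 10 members were past 1.5-fold higher and 0 lower, where 7.98% and 8.05% of 8684 genes were, with medians of 0.60 over members and -0.06 over all genes.

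Gbp4 (67.2 and 102 CPM, log2 ratio 0.60) and Irgm2 (7.93 and 14.0 CPM, 0.82) were among the 6, and Tgtp2 (3.96 and 13.3 CPM) had the largest ratio, 1.75 (1.03 to 2.54). Gbp2 stood at 80.3 and 121 CPM (0.59), but 26.2% of the WT UMIs lay in 1 cell, and without the highest cell of each library its ratio was 0.98. Iigp1 was lowest of all classes in CD8 T cells, at 11.9 and 23.3 CPM, of which RNA from outside the cell was estimated at 54.0% and 29.9%, so the level in these cells is close to that background. Gbp3 stood at 49.4 and 54.2 CPM, with an interval that included 0 (-0.10 to 0.37). With all barcodes of at least 1000 UMIs (985 WT and 986 other cells) the log2 ratio of the sum was 0.37, and 1 of 10 members (Tgtp2) was past 1.5-fold.

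NK cells differed least. The members summed to 501 and 558 CPM, a log2 ratio of 0.16 (0.07 to 0.24), and 1 of 10 members, Tgtp2 (6.19 and 10.8 CPM, log2 ratio 0.80), was past 1.5-fold higher and 0 lower, where 9.55% and 2.85% of 7965 genes were, so the count is near the background. Gbp7 (111 and 105 CPM) and Irgm2 (9.29 and 8.17 CPM) had ratios below 0, with intervals of -0.27 to 0.10 and -0.85 to 0.49. Igtp, which differed by nearly 2-fold in CD8 T cells, stood at 89.2 and 98.2 CPM in NK cells, a log2 ratio of 0.14 (-0.06 to 0.34). The medians were 0.22 over members and 0.07 over all genes.

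Tregs had the highest levels of Igtp, Gbp7 and Gbp4 of all classes in both libraries, although, but for Igtp in the library labelled Siah2-/-, the intervals overlapped with those of the next class. Igtp stood at 479 CPM in WT and 747 CPM in the library labelled Siah2-/- (log2 ratio 0.64, interval 0.42 to 0.86), and 72.9% and 85.3% of thinned Tregs had an Igtp UMI. It was the 1 member past 1.5-fold of the 7 with at least 50 UMIs, and 0 were lower, where 13.3% and 15.6% of 3117 genes were, so the count is near the share of all genes. It was 0 of 7 with the WT minimum of UMIs in both libraries and with all barcodes, and 4 of 7 with stricter gates. The sum of the members was 1499 and 2112 CPM (log2 ratio 0.49). The Treg ratio moved with the cells counted. C1q genes, which Tregs lack, were at 528 CPM in WT and 289 CPM in the other library. RNA from outside the cell, estimated from them, came to 12.7% and 7.63% of UMIs. With that RNA subtracted 1 of 7 members was past 1.5-fold, and the median log2 ratio over members was 0.41, beside 0.45 as reported. Foxp3 was at 226 and 434 CPM, and the part of this difference in the result was not tested. With the WT minimum in both libraries (59 and 35 cells) the summed log2 ratio was 0.27, and with all barcodes of at least 1000 UMIs (415 and 211 cells) it was 0.003.

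CD4 T cells without Foxp3, with 21 WT cells, gave sums of 958 and 1335 CPM, a log2 ratio of 0.48 (0.27 to 0.70), and 1 WT cell held 30.3% of the member UMIs. C1q genes of macrophages were at 1392 CPM in WT and 233 CPM in the other library in this class, and their part in the result was not tested. Past 1.5-fold higher were 2 of 8 members (Gbp3 and Gbp5), where 18.9% of 4656 genes were, and these rest on 6 UMIs and 1 UMI in WT (log2 ratios of 0.97, interval -0.19 to 2.45, and 2.54, interval 0.01 to 7.86). Igtp was again the member with the most UMIs, at 342 CPM in WT and 456 CPM in the other library.

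In CD45-negative cells all 10 members were past 1.5-fold higher in the library labelled Siah2-/-, where 8.91% of 10321 genes were higher and 11.3% lower, and the sum stood at 1324 and 2934 CPM, a log2 ratio of 1.15 (1.11 to 1.19). The medians were 1.08 over members and -0.02 over all genes, and GBPs (1.11) and IRGs (1.18) differed about equally. Iigp1 was the leading member by level in these cells, at 316 CPM in WT and 772 CPM in the other library (log2 ratio 1.29, interval 1.21 to 1.36), with a UMI in 52.4% and 83.5% of thinned cells. Irgm1 stood at 162 and 323 CPM (1.00), Irgm2 at 42.9 and 80.6 CPM (0.91) and Tgtp2 at 14.9 and 44.9 CPM (1.59). In each library these 4 IRGs were higher in CD45-negative cells than in any other class, although in WT the interval of Irgm1 overlapped with those of Tregs and CD4 T cells, and that of Tgtp2 with those of Tregs, CD4 T cells and dendritic cells.

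Of the GBPs, Gbp2 (261 and 636 CPM, log2 ratio 1.29), Gbp4 (68.6 and 138 CPM, 1.01), Gbp7 (107 and 201 CPM, 0.92) and Gbp3 (118 and 200.5 CPM, 0.76) were past 1.5-fold in CD45-negative cells with and without the cells highest for each gene. For Gbp2 1 cell of the 91 held 16.2% of the UMIs, and without the highest cell of each library the ratio was 1.08. Gbp5 (11.7 and 42.3 CPM, 1.85) had 28.9% of its UMIs in 1 such cell. For every other member the highest cell held a smaller share.

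The class of CD45-negative cells was not alike in the libraries, and the result moved with its make-up. In cells with at least 5 UMIs of tumor markers (243 WT and 33 other cells), a split chosen after seeing the data, the members summed to 1227 and 3775 CPM (log2 ratio 1.62), and 10 of 10 members were past 1.5-fold, where 16% of 8850 genes were. Here the highest of the 33 cells of the library labelled Siah2-/- held 14.4% of the member UMIs. The largest such shares for single members were 45.9% (Gbp5) and 26.9% (Gbp2). In cells with no tumor marker UMI (78 and 10 cells) the sums were 1374.5 and 1825 CPM, a log2 ratio of 0.41 (0.24 to 0.57), and 0 of 8 members were past 1.5-fold, where 8.49% of 4016 genes were. Within these cells 1 of the 10 cells of the library labelled Siah2-/- held 36.2% of the member UMIs. Thus the ratio was above 0 in both, and the sizes rest on 33 and 10 cells.

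**Figure D2:**
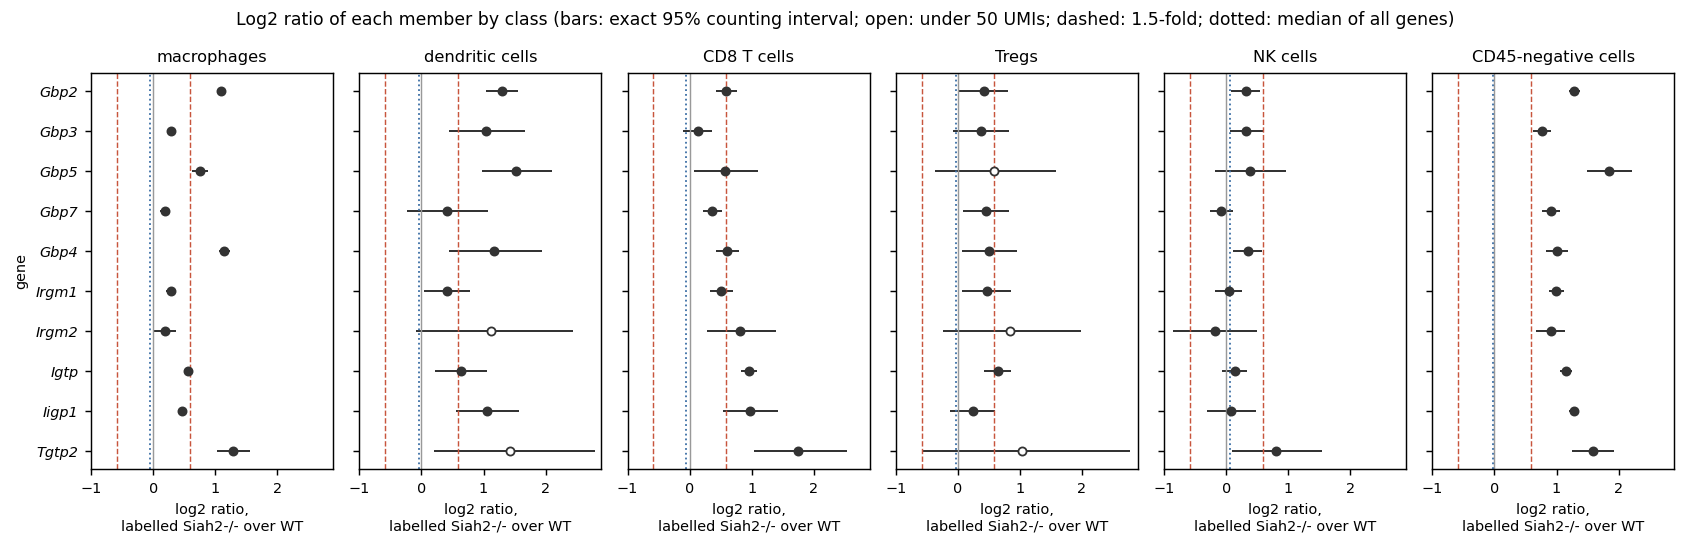
Log2 ratio of each of the 10 genes, library labelled Siah2-/- over WT, in 6 cell classes, with exact 95% counting intervals. Open points had under 50 UMIs, dashed red lines mark 1.5-fold, and the dotted line marks the median of all genes in the class. All 10 points lie past the upper 1.5-fold line in CD45-negative cells, and 1 does in NK cells.

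Across classes the members did not share 1 order. Gbp2 was highest in macrophages and lowest in NK cells in both libraries, a range of 5.73-fold in WT and 9.86-fold in the library labelled Siah2-/-. In WT it ran from macrophages (370 CPM) through CD45-negative cells (261), Tregs (163), dendritic cells and CD4 T cells (148 each) to CD8 T cells (80.3) and NK cells (64.5). In that order Tregs, dendritic cells and CD4 T cells overlapped in their intervals, as did CD8 T and NK cells. Igtp ran otherwise, with Tregs first (479), then CD4 T cells (342), CD45-negative cells (222), macrophages (147), CD8 T cells (137), NK cells (89.2) and dendritic cells (70.4), and of these neighbours Tregs and CD4 T cells, macrophages and CD8 T cells, and NK and dendritic cells overlapped. Iigp1 had the widest range of the members for which every class had a UMI, 26.6-fold in WT and 33.1-fold in the other library, from CD45-negative cells to CD8 T cells. RNA from outside the cell was estimated at 54.0% and 29.9% of the CD8 T cell level, so these folds are rough. Irgm1 had the narrowest range in WT, 2.17-fold, with every pair of neighbours overlapping.

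Over all cells of a library the sum was 1137 and 1575 CPM, a log2 ratio of 0.47. Iigp1 stood at 178 CPM in WT and 163 CPM in the library labelled Siah2-/- over all cells, a log2 ratio of -0.13 (-0.17 to -0.09), although its ratio was above 0 in macrophages (0.47), dendritic cells (1.05), CD8 T cells (0.97), Tregs (0.23), NK cells (0.08) and CD45-negative cells (1.29). The intervals in Tregs (-0.12 to 0.59) and NK cells (-0.30 to 0.48) included 0. In CD4 T cells without Foxp3 the Iigp1 ratio was -0.06 (-0.89 to 0.88), on 13 WT UMIs. The class in which it was highest, the CD45-negative cells, made up 14.5% of WT cells and 1.64% of the others.

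The macrophage difference was seen along most of the distribution of cells. With each macrophage thinned to 4000 UMIs, the median sum of the members was 3 UMIs in WT and 6 UMIs in the library labelled Siah2-/-, the lower quartile was 1 and 3 UMIs, and the 90th percentile was 11.4 and 19 UMIs. Cells with no member UMI made up 10.4% and 4.39%. In CD45-negative cells the medians were 3 and 9 UMIs and the share at 0 was 18.2% and 2.20%. In CD8 T cells the medians were 2 and 3 UMIs (18.9% and 11.4% at 0), and in NK cells 1 and 2 UMIs (24.3% and 20.7% at 0). At least 5 of the 10 members were detected together in 19.7% of WT and 36.6% of the other macrophages, in 22.6% and 54.9% of CD45-negative cells, and in 5.28% and 6.28% of NK cells.

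**Figure D3:**
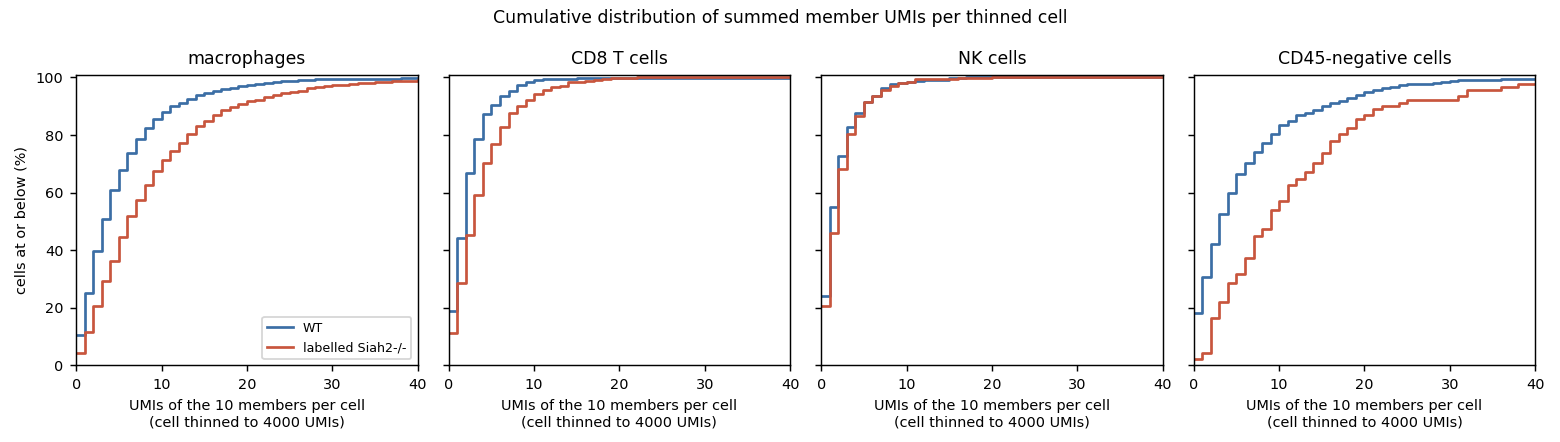
Cumulative percentage of cells (y axis) with at most a given number of UMIs of the 10 members (x axis) after each cell was thinned to 4000 UMIs, for 4 classes, WT in blue and the library labelled Siah2-/- in red. The red curve lies to the right of the blue along most of its length in macrophages (medians of 3 and 6) and CD45-negative cells (3 and 9), and the curves nearly coincide in NK cells (1 and 2).

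Within macrophages, states were gated by marker genes that hold no member. Described here are Mgl2-type (204 WT and 74 other cells), resident-like (268 and 51), monocyte-like (157 and 264), interferon-induced (329 and 347, by type I markers such as Rsad2 and Ifit1), cycling (202 and 77) and cells in no state gate (828 and 738). More of the Mgl2-type, resident-like and cycling cells were thus from WT, and more of the monocyte-like cells from the library labelled Siah2-/-. The interferon-induced and cycling gates did not exclude the other states. A cell of these sets can therefore also lie in the Mgl2-type, resident-like or monocyte-like set. The sum of the members was higher in the library labelled Siah2-/- in each of these 6 sets, with log2 ratios from 0.40 in monocyte-like and interferon-induced cells to 0.68 in cells in no state gate. Of these states the interferon-induced one had the most cells near its gate limit, with 146 WT and 145 other cells within 20% of it. For the smaller Mgl2-type state 69 and 73 cells lay as near.

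Gbp2 had the same order of states in both libraries, highest in monocyte-like cells at 1217 CPM in WT and 1873 CPM in the other library, then interferon-induced (762 and 1336), no state gate (321 and 641), resident-like (240.3 and 440.1), Mgl2-type (207 and 433) and cycling cells (178 and 299). The range was 6.84-fold in WT and 6.27-fold in the library labelled Siah2-/-, wider than the difference between the libraries in any state, which ran from a log2 ratio of 0.62 in monocyte-like to 1.06 in Mgl2-type cells. Gbp3 was also highest in monocyte-like cells (278 and 281 CPM). The other 8 members were highest in interferon-induced cells in both libraries. For Gbp3, Gbp4, Gbp5, Irgm1 and Tgtp2 the interval of the highest set overlapped with that of the next in both libraries. The same held for Irgm2 in the library labelled Siah2-/-.

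Iigp1 parted from Gbp2 in the monocyte-like state. There it stood at 108 CPM in WT and 122 CPM in the library labelled Siah2-/-, the lowest of the 6 sets in the latter, beside 314 and 319 CPM in interferon-induced cells. The GBP Gbp2 was 1.60-fold higher in monocyte-like than in interferon-induced WT cells, and the IRG Iigp1 was 2.91-fold lower. The sets can share cells, and such cells count in both. In interferon-induced cells Iigp1 did not differ between the libraries beyond counting error (log2 ratio 0.02, interval -0.10 to 0.14), whereas Gbp2 did (0.81, interval 0.74 to 0.88). In cycling cells Iigp1 stood at 105 and 203.5 CPM, a log2 ratio of 0.95 (0.72 to 1.18).

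In interferon-induced macrophages the GBPs summed to 1483 and 2162 CPM (log2 ratio 0.54) and the IRGs to 1030.2 and 1160 CPM (0.17). Without Gbp2 the other 4 GBPs summed to 721 and 825 CPM, with a log2 ratio of 0.19 (0.12 to 0.27) near that of the IRGs. In these cells 2 of 10 members, Gbp2 and Tgtp2, were past 1.5-fold higher, where 7.75% of 7098 genes were. Monocyte-like cells also had 2 of 10 (8.65% of 5166 genes), with Gbp2 and Tgtp2 again. Gbp7 had ratios below 0 in the interferon-induced (-0.12), monocyte-like (-0.09), resident-like (-0.27), cycling (-0.08) and Mgl2-type cells (-0.01), each with an interval that included 0. In cells in no state gate the Gbp7 ratio was above 0, at 0.27 (0.14 to 0.40). The counts were 3 of 9 in Mgl2-type (6.9% of all genes), 4 of 9 in resident-like (7.83%), 3 of 9 in cycling (6.36%) and 4 of 10 in cells with no state gate (6.97%). Gbp2 and Gbp4 were among them in each of the 4.

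**Figure D4:**
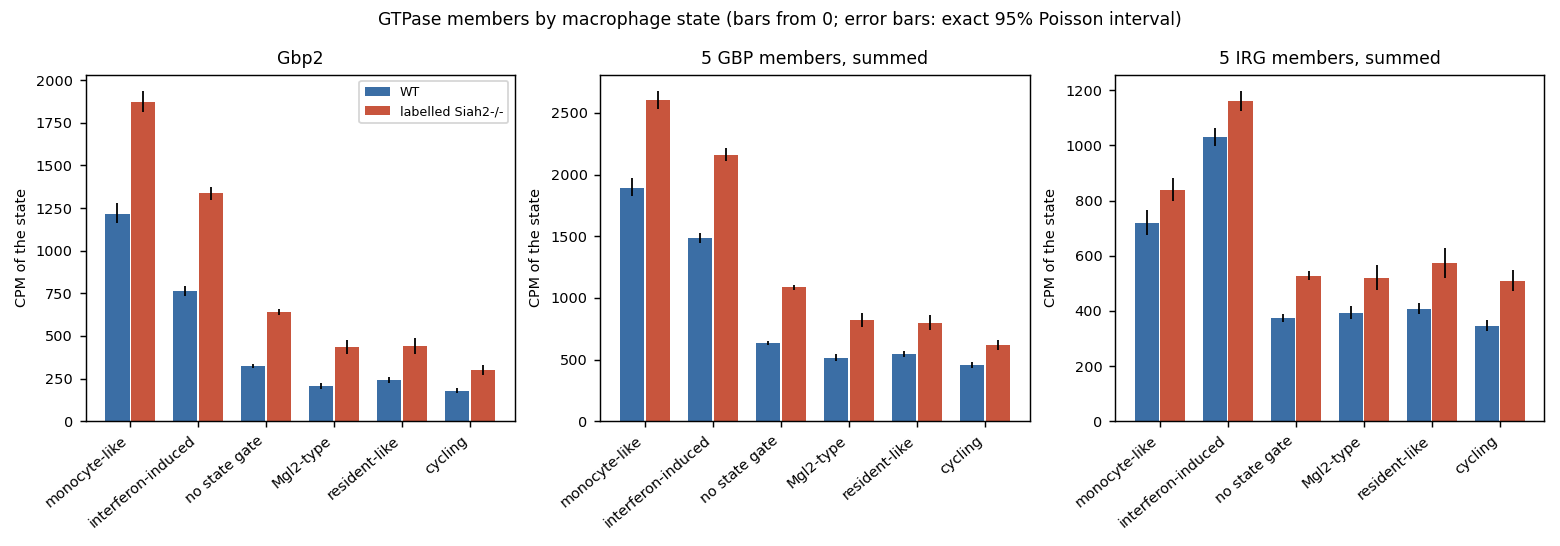
Levels (CPM of the state, axis from 0) of Gbp2, of the 5 GBPs summed and of the 5 IRGs summed in 6 sets of macrophages, WT in blue and the library labelled Siah2-/- in red, with exact 95% Poisson intervals. Gbp2 was highest in monocyte-like cells (1217 and 1873 CPM), and the IRGs in interferon-induced cells (1030.2 and 1160 CPM).

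In both libraries the members were higher in macrophages with more type I interferon markers. Macrophages were thinned to 4000 UMIs and binned by the UMIs of 6 type I markers (Rsad2, Ifit1, Ifit2, Ifit3, Isg15 and Cxcl10, the last of which interferon gamma also induces). In cells with none, the members summed to 543 CPM in 297 WT cells and 1035 CPM in 224 cells of the library labelled Siah2-/-, a log2 ratio of 0.93 (0.78 to 1.08). In cells with 24 or more marker UMIs they summed to 2698 CPM (282 cells) and 3894 CPM (292 cells), a ratio of 0.53 (0.46 to 0.60). The ratio was largest in between, at 1.01 in cells with 1 to 2 marker UMIs and 1.02 with 3 to 5. The level was higher in each next bin, 4.97-fold in WT and 3.76-fold in the other library from end to end, and at every marker level the library labelled Siah2-/- was above WT, by less at the high end. Over single macrophages, Pearson's r between the member sum and the type I marker sum was 0.49 in WT and 0.42 in the other library, and in CD8 T cells 0.37 and 0.65, as a description over cells that share a library.

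**Figure D5:**
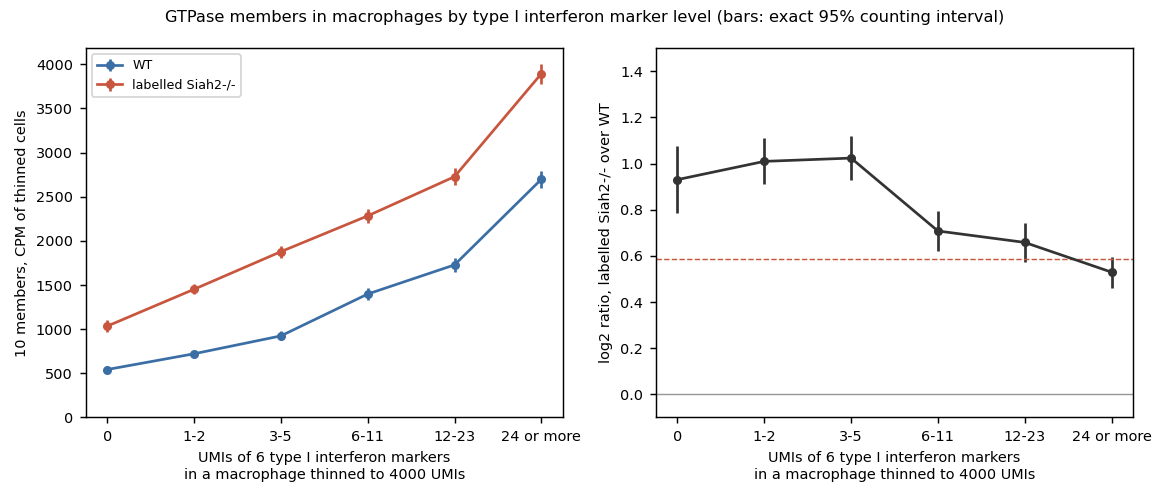
Left, summed level of the 10 members (CPM, axis from 0) in macrophages grouped by UMIs of 6 type I interferon markers after thinning to 4000 UMIs, WT in blue and the library labelled Siah2-/- in red. Right, log2 ratio of the libraries in each bin with the 1.5-fold line dashed, bars being exact 95% counting intervals; it was 0.93 in cells with no marker UMI, 1.02 with 3 to 5 and 0.53 with 24 or more.

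The signal upstream of the members was read from 17 genes of interferon gamma signalling, from ligand to inhibitors. The counts in this and the following lists stand beside all genes past 1.5-fold higher and lower, 8.23% and 7.78% in macrophages, 7.98% and 8.05% in CD8 T cells, 9.55% and 2.85% in NK cells, 13.3% and 15.6% in Tregs, 18.9% and 14.5% in CD4 T cells without Foxp3 and 8.91% and 11.3% in CD45-negative cells. In macrophages 3 of 17 were past 1.5-fold higher and 0 lower (median log2 ratio 0.22): the ligand Ifng (2.16 and 9.87 CPM), the factor Irf1 (106 and 175 CPM, 0.72) and the inhibitor Socs1 (66.3 and 114 CPM, 0.79). Ifng is a product of T and NK cells, and NK genes in these macrophages stood at 27.3 and 87.3 CPM, and the part of such RNA in the Ifng value was not tested. Of 16 genes in CD8 T cells, Socs3 (19.6 and 38.8 CPM, 0.98), Stat2 (0.71) and Irf1 (0.62) were past 1.5-fold higher and Ifngr2 (7.09 and 3.68 CPM, -0.95), a chain of the receptor, lower. The Ifngr2 value rests on few UMIs. RNA from outside the cell was estimated at 4.58% and 5.51% of UMIs in this class, and its part in that value was not tested. In NK cells 4 of 16 were higher and 0 lower: Socs3 (38.2 and 91.5 CPM, 1.26), Ifngr2 (1.07, interval 0.13 to 2.11, on 13 and 38 UMIs), Ifng (84.1 and 149.8 CPM, 0.83) and Ifngr1 (458 and 760.3 CPM, 0.73). CD45-negative cells had 9 of 16 higher and 0 lower (median 0.67), and Tregs 5 of 12 higher and 0 lower (0.54). CD4 T cells without Foxp3 had 5 higher and 1 lower of 15 (0.34). Dendritic cells had 5 of 16 higher and 0 lower (0.14), where 11.3% and 8.67% of all genes were.

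Of 21 other interferon gamma targets that are not GTPases, 3 of 19 measured in macrophages were past 1.5-fold higher and 0 lower, with a median log2 ratio of 0.16. They were Nos2, the inducible nitric oxide synthase (4.09 and 40.8 CPM, log2 ratio 3.32), Cd274, which encodes the checkpoint ligand PD-L1 (41.8 and 120.2 CPM, 1.52), and the chemokine Ccl5 (931 and 2086 CPM, 1.16). Ccl5 (0.62) was the 1 of 18 in CD8 T cells, under the 7.98% of all genes, and in NK cells 3 of 17 were higher: Ccl5 (352 and 1052 CPM, 1.58), Cd274 (0.82) and Cxcl9 (0.65). Cxcl9 there was at 8.77 and 13.7 CPM on 34 and 74 UMIs, beside 395 and 496 CPM in macrophages and free RNA estimated at 5.27% and 5.74% of NK cell UMIs, so it is not read as NK cell expression. Tregs had 1 higher and 4 lower of 14 (median -0.07), and CD4 T cells without Foxp3 had 4 higher and 3 lower of 16 (median -0.27). The lower genes were Cd74, Fcgr1 and Aif1, which macrophages express, in both classes and Serpina3g in Tregs, and C1q genes were lower in the same direction (528 and 289 CPM in Tregs, 1392 and 233 CPM in CD4 T cells). The part of macrophage RNA in these counts was not tested. In CD45-negative cells 13 of 18 were past 1.5-fold higher and 0 lower, with a median of 0.78, and the 13 again include Cd74, Fcgr1 and Aif1. C1q genes stood at 112 and 197 CPM in this class, and the free RNA estimated from them was 2.69% and 5.21% of UMIs. The part of such RNA in these counts was not tested.

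Genes led by type I interferon gave another pattern in macrophages, where 0 of 22 were past 1.5-fold higher and 1 lower (Ifi44, 39.0 and 23.4 CPM, -0.74), with a median of -0.03 beside 0.51 for the 10 members. CD8 T cells had 8 of 20 higher and 0 lower (median 0.44), led by the antiviral genes Ifit1 (61.5 and 135.6 CPM, 1.14), Rsad2 (1.03), Ifit3 (0.84) and Ifit3b (0.76). In NK cells 2 of 20 were higher, Ifit3 (0.65) and Ifit2 (0.60), a share near the 9.55% of all genes. In CD45-negative cells 10 of 21 were higher and 0 lower (median 0.58).

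Among 18 other GTPases of the same or related families, 14 were in the table. In macrophages 6 of 12 measured were past 1.5-fold higher and 0 lower (median 0.65), led by Tgtp1 (2.31), Gm4070 (1.40), F830016B08Rik (1.20) and Irgc1 (0.91), and the last rests on 20 and 37 UMIs. In CD8 T cells 3 of 6 were higher (Gm4070 at 1.30, Tgtp1 at 1.06 and Gbp9 at 0.68), in NK cells 1 of 5 (Gm4070, 1.47), in CD4 T cells without Foxp3 1 of 4, in dendritic cells 0 of 2, and in CD45-negative cells 7 of 8. Tregs had 0 of 3 higher and 1 lower, Gm4951 (43 and 15 UMIs, -1.22, interval -2.18 to -0.34). Partners of these proteins, 21 genes of inflammasomes and of the ATG8 conjugation machinery that GBPs and IRGs need, had 4 higher and 1 lower in macrophages (median 0.11). The higher included the cytokine Il1b (807 and 1772 CPM, 1.13), the sensor Nlrp3 (24.2 and 48.0 CPM, 0.99) and the galectin Lgals3 (1439 and 2641 CPM, 0.88), and the ubiquitin ligase Trim21 was the 1 lower gene (8.42 and 4.77 CPM, -0.82), a count under the 7.78% of all genes. None of the 4 higher genes belongs to the ATG8 conjugation genes of the list. In CD8 T cells 3 were higher and 1 lower of 19, and in NK cells 1 each of 18, and the lower count in CD8 T cells and the higher count in NK cells lie under the shares of all genes.

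Over the 28 sums of classes and states by library, the genes whose levels (log2 of CPM plus 1) were most like the summed members were Parp10 (r = 0.86), Rbms1 (0.86), Stat2 (0.85), Xaf1 (0.84), Tiparp (0.84), H3f3b (0.83), Mocs1 (0.82) and Smox (0.81), among 7806 genes compared. Of the members themselves Irgm1 was closest to the sum of the others (r = 0.96), and Igtp and Tgtp2 farthest (0.61 each). The states are parts of the macrophage class and share its libraries, so these correlations are descriptions only.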

How the data were processed

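Libraries were made with the Single Cell 3′ v2 kit, and the authors counted UMIs per gene with Cell Ranger (version not given in the sources used here) on mm10/GRCm38. Per their methods the authors removed the lowest and highest 2% of cells by genes detected and cells over 10% mitochondrial. The deposited raw counts (4524 WT and 5576 Siah2-/- cells) were restricted to the cells of the deposited natural log table, made by the authors from counts scaled to 10000 per cell and used only to list cells.

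The 10 genes, the gene lists and the classes were chosen with earlier results of these data known. Gates were set after marker counts were seen. T cells had at least 5 UMIs of Cd3 genes, and macrophages at least 5 of a marker set with Csf1r and Adgre1. NK cells had at least 3 of Ncr1, Klrb1c and Eomes, and dendritic cells at least 2 of Flt3, Zbtb46 and Ccr7. T cell, NK cell and macrophage markers of another class were held to at most 2 UMIs, with exceptions. T cells could hold up to 7 UMIs of NK markers, and dendritic cells up to 4 of macrophage markers. CD45-negative cells had no limit on NK markers. Immune classes held under 10 UMIs of fibroblast markers. Cells with T cell and macrophage markers (340 and 377) were left out, and no doublet caller was run. Of the listed monocyte markers only Chil3, Vcan and Hp were used. A macrophage state and some single genes are not reported here.

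UMIs were summed per class and library and given as CPM of the class, with exact Poisson intervals. Ratios had exact conditional binomial intervals (95%). Barcodes with 10 to 100 UMIs served as empty droplets. All members were named, and from each list at most the 4 largest ratios past 1.5-fold in macrophages, CD8 T and NK cells. Python 3.11.15, numpy 2.4.6, scipy 1.17.1, pandas 2.3.3 and matplotlib 3.10.9 were used, and the scripts were tested on simulated data.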

Additional observations from a re-analysis of the deposited data

How the results depend on the processing

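The summed members were higher in the library labelled Siah2-/- in 51 of 51 recomputed sums. These sums reuse cells of the same libraries, so they are not independent, and the smallest log2 ratio was 0.0032 in Tregs. In macrophages (log2 ratio 0.69) the sum was 0.58 with the WT minimum of UMIs in both libraries, 0.52 with all barcodes of at least 1000 UMIs, 0.72 with free RNA subtracted, 0.73 as a mean over cells, 0.74 relative to the median of all genes and 0.51 with equal weight for each state. In dendritic cells (1.00) stricter gates gave 1.27. In CD8 T cells (0.64) the WT minimum gave 0.54, all barcodes 0.37, the mean over cells 0.72 and leaving out the 1% of cells with the most member UMIs 0.72. In NK cells (0.16) the WT minimum gave 0.059. In Tregs (0.49) the WT minimum gave 0.27, stricter gates 0.67 and all barcodes 0.0032. In CD45-negative cells (1.15) the mean over cells gave 1.07, leaving out the 5% of cells with the most UMIs 0.90, and, in a split chosen after seeing the data, cells with tumor markers 1.62 and without 0.41. The cause of these shifts was not tested.

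With no minimum of UMIs the share of all genes past 1.5-fold in either direction was 28.9% in macrophages (16.0% with the minimum of 50), 45.2% in dendritic cells (20.0%), 34.6% in T cells with CD8 (16.0%), 31.4% in NK cells (12.4%), 53.6% in Tregs (28.9%) and 35.0% in CD45-negative cells (20.2%). Of 570 values of single members, 66 moved beyond their interval and 12 changed sign. Of values 1.5-fold or more as reported, 3 changed direction: Gbp5 in Tregs with all barcodes (-0.17), and Gbp5 (-0.43) and Tgtp2 (-0.23) in CD45-negative cells without tumor markers. The members past 1.5-fold numbered 3 to 5 of 10 in macrophages, 5 to 7 of 8 in dendritic cells, 1 to 7 of 10 in CD8 T cells, 0 to 4 of 7 in Tregs, 1 to 2 of 10 in NK cells, and 10 of 10 in CD45-negative cells except in those without tumor markers, where there were 0. No paired analysis was possible because each genotype had 1 library.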

Other observations

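A second row of the count table under the name Gbp6, of 2 entries that share this name, was outside the lists. It was counted at 18.3 CPM in WT macrophages and 42.3 CPM in those of the library labelled Siah2-/- (log2 ratio 1.21, interval 1.04 to 1.39), at 35.3 and 84.5 CPM in CD8 T cells (1.26), at 55.0 and 131 CPM in Tregs (1.26) and at 21.9 and 38.8 CPM in NK cells (0.82). The 340 WT and 377 other barcodes with both T cell and macrophage markers, used in no comparison, held the 10 members at 1112 and 1609 CPM (log2 ratio 0.53, interval 0.49 to 0.58). Ifng in Tregs (59 and 68 cells) was at 4 UMIs in WT and 53 UMIs in the library labelled Siah2-/-. These are 6.11 and 99.5 CPM, a log2 ratio of 4.03 (2.59 to 5.95). Cd3 genes in the same cells stood at 1894 and 3413 CPM, and Ifng in CD4 T cells without Foxp3 at 301 and 790 CPM. The part of such differences between the cells gated as Tregs in the Ifng value was not tested.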
